A study of Mus musculus with 19 samples.

Results

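Choroid plexus genes were followed through bulk RNA sequencing of 3 brain regions of wild-type (WT) mice and of mice with the SCA17 knock-in (KI). The genes were the 10 named *Ttr*, *Kcnj13*, *Folr1*, *Kl*, *Clic6*, *Enpp2*, *Aqp1*, *Otx2*, *Sostdc1* and *Slc4a5* in the GENCODE M21 annotation, out of 41128 genes in the deposited count table. All 10 were among the 16841 genes that passed the filter on low counts. They were selected on their levels in these libraries, which had been seen to differ from library to library, so their levels and fold changes are given as a description.

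SCA17 KI mice carry, in the germline and therefore in all cells, a *Tbp* allele whose product, the TATA box-binding protein TBP, has a lengthened polyglutamine tract. In the study's account the KI line was made by crossing with a mouse that expresses Cre from the EIIa promoter, and the WT mice were littermates. All mice were on the C57BL/6 strain and 3 months old. The cerebellum gave 4 KI and 3 WT libraries, and the striatum and the prefrontal cortex gave 3 libraries of each genotype, 19 libraries in all. RNA was taken from whole dissected regions, so each value is an average over all cell types in the piece of tissue.

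The choroid plexus is a folded sheet of epithelium over a core of vessels and stroma that hangs in the ventricles of the brain. Its epithelial cells secrete most of the cerebrospinal fluid, load that fluid with carrier proteins and vitamins, and form the barrier between blood and fluid. The plexus of the lateral ventricle lies along the medial side of the striatum, that of the fourth ventricle lies beneath the cerebellum, and the prefrontal cortex has no plexus of its own. The 10 genes are used as markers of this epithelium, although *Enpp2* is also made by oligodendrocytes.

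Library totals ran from 10639110 to 17431284 counts, with a median of 15082703. Levels are given as CPM, counts per 1000000 counts of the TMM-scaled library total, and they are not corrected for gene length. *Tbp*, the targeted gene, was at 48.5 to 62.0 CPM in cerebellum, 38.1 to 49.6 CPM in striatum and 32.0 to 42.1 CPM in prefrontal cortex, and these counts do not tell the KI allele from the WT allele. The region labels were met by region markers: *Gabra6*, a GABA receptor subunit of cerebellar granule cells, was at 1198 to 1398 CPM in cerebellum and at most 2.30 CPM elsewhere. *Ppp1r1b*, which encodes DARPP-32 of striatal projection neurons, was at 1298 to 2702 CPM in striatum and at most 260.5 CPM elsewhere. *Tbr1*, a transcription factor of cortical neurons, was at 93.6 to 151 CPM in prefrontal cortex and at most 22.6 CPM elsewhere.

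Promoters of these genes are shown first because TBP, the protein that the KI allele alters, binds the TATA box. RefSeq promoter windows on GRCm38.p6, from 250 bases before to 50 bases after a start site, were given for 5 of the 10 genes, namely *Kcnj13*, *Kl*, *Aqp1*, *Otx2* and *Slc4a5*. The stretches printed here run from 140 bases before the start to 10 bases from the start on, 5′ to 3′ on the strand of the gene, and capitals mark the letters TATAAA or, read on the opposite strand, TTTATA.
Kcnj13: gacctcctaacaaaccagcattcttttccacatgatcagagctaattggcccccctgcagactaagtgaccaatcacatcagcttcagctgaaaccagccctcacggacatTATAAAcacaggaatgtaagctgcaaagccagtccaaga
Slc4a5: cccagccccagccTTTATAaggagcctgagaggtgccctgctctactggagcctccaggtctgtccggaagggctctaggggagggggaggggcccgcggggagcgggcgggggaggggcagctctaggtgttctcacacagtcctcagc
Kl: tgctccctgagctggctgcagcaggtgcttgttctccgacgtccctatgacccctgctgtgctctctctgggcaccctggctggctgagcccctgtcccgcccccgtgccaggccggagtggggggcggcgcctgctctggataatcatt
Aqp1: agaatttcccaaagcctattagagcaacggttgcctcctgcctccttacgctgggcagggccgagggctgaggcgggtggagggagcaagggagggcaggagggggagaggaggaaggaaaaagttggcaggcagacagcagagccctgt

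All coordinates are on GRCm38.p6. The *Kcnj13* stretch lies at chr1:87394720-87394869 on the minus strand and holds TATAAA 29 bases before the start. The *Slc4a5* stretch lies at chr6:83237235-83237384 on the plus strand, and its only match, 127 bases before the start, is on the opposite strand. The *Kl* stretch at chr5:150952467-150952616 and the *Aqp1* stretch at chr6:55336159-55336308, both on the plus strand, hold no match. The GC content was 47.3% for *Kcnj13*, 68% for *Slc4a5*, 67.3% for *Kl* and 61.3% for *Aqp1*.

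Searched on both strands over whole windows of 300 bases, TATAAA was present in 3 of the 8 windows of these genes, 1 each of *Kcnj13*, *Slc4a5* and *Otx2*. It was present in 13.6% of the 32851 windows of all genes, and on the gene's own strand between 40 and 20 bases before the start in 1.99% of them. The letters TAATCC, the core that Otx2 and related homeodomain factors recognise, were found in 1 of the 8 windows, a window of *Otx2* itself, against 7.06% of all windows. In 45 windows of 36 genes from a longer list of choroid plexus genes, 15.6% held TATAAA and 11.1% held TAATCC. The TAATCC and TATAAA matches can share letters. In the window of *Ace*, of the longer list, they begin 27 and 31 bases before the start, the latter match read on the opposite strand. A match is a description of the sequence and not a binding site.

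*Ttr*, on chromosome 18, encodes transthyretin, the carrier of thyroxine and of retinol-binding protein that the choroid plexus secretes into the fluid. Its level in the 4 KI cerebellum libraries was 7.21, 5.32, 4547 and 5.92 CPM for replicates 1 to 4, and in the 3 WT cerebellum libraries 1818, 12.3 and 4.12 CPM. In the striatum it was 4918, 3974 and 6794 CPM in KI and 6309, 8275 and 1434 CPM in WT. In the prefrontal cortex it was 37.8, 22.9 and 14.3 CPM in KI and 7.33, 14.0 and 17.3 CPM in WT. Thus KI replicate 3 and WT replicate 1 of the cerebellum carried striatum-like levels of *Ttr*, the other 5 cerebellum libraries were at most 12.3 CPM, and KI and WT overlapped in every region. In bulk tissue, more cells of a type and more RNA per cell cannot be told apart.

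The same 2 cerebellum libraries stood at the top for every gene of the group. KI replicate 3 was the highest and WT replicate 1 the second highest of the 7 cerebellum libraries for 10 of the 10 genes. In the striatum WT replicate 3 was the lowest of 6 libraries for 10 of the 10 genes, and WT replicate 2 was the highest for 9, with *Sostdc1* highest in KI replicate 3 instead. No library held such a place in the prefrontal cortex, where the most frequent highest library, KI replicate 1, led for 5 of the 10 genes. The plot of the 10 genes by library shows this shared order.

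**Figure D1:**
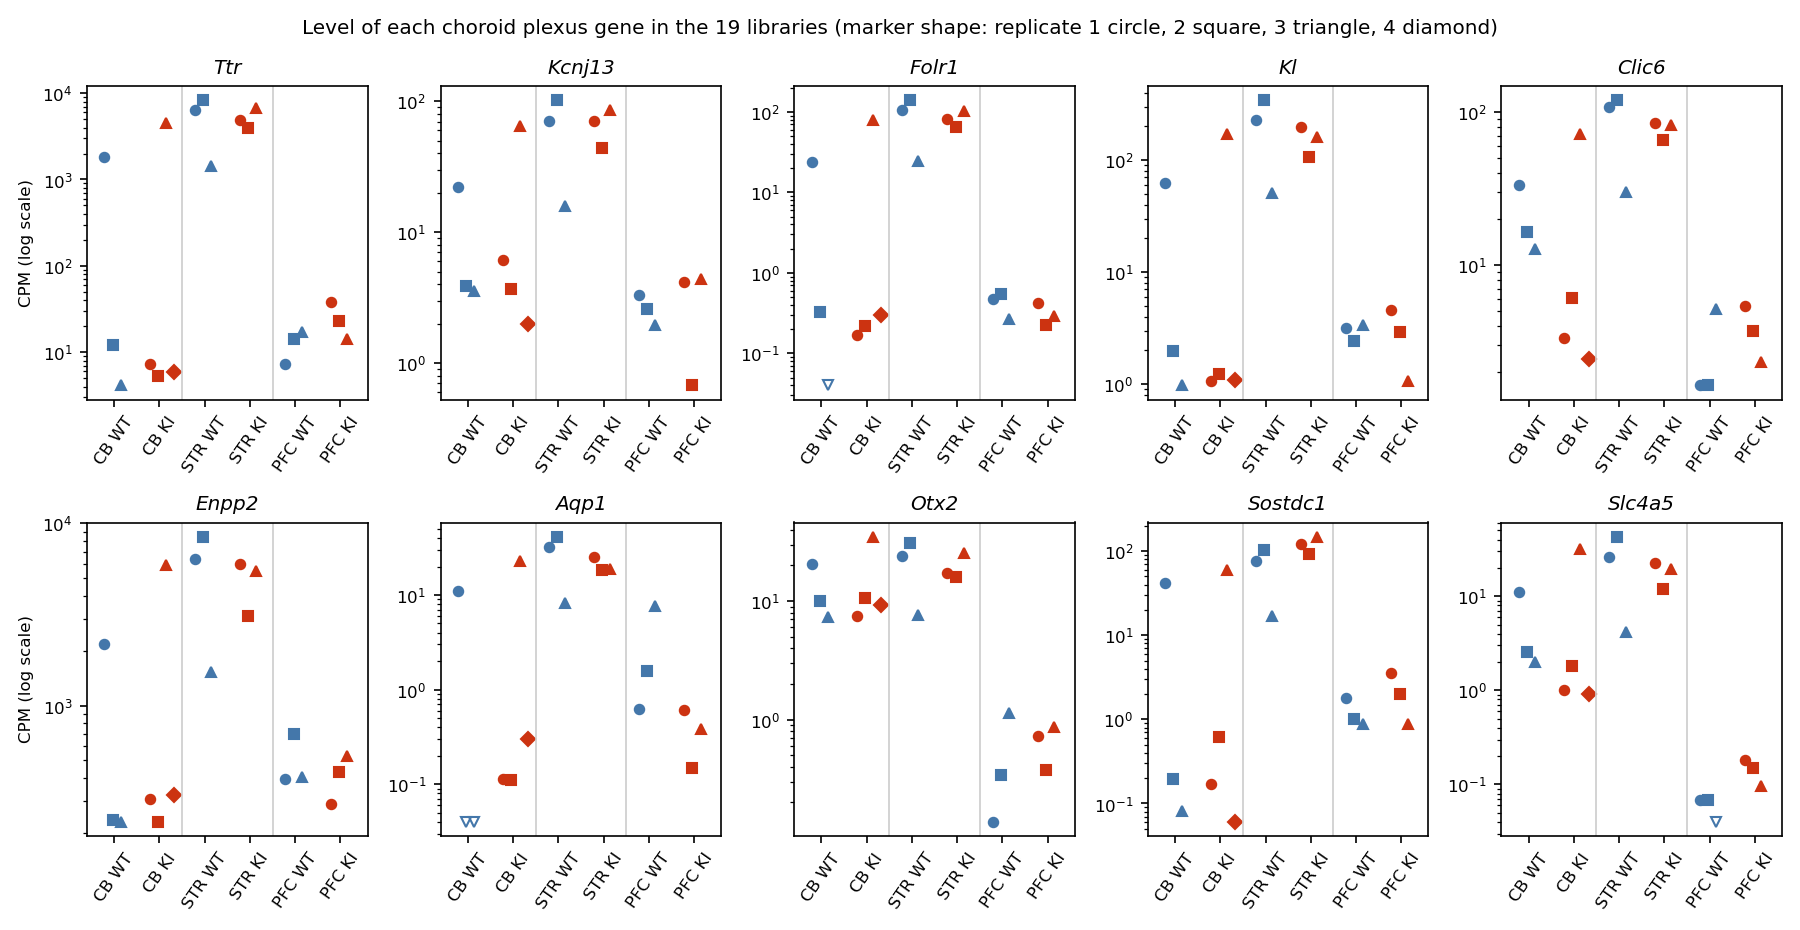
Level of each of the 10 choroid plexus genes in each of the 19 libraries, in CPM on a log axis, with KI and WT libraries in separate columns for each region (CB, cerebellum; PFC, prefrontal cortex; STR, striatum); each point is a library and open triangles at the foot mark libraries with 0 counts. In every panel KI replicate 3 and WT replicate 1 are the highest and second highest cerebellum libraries, by the least in *Otx2* (35.0 and 20.8 CPM against at most 10.6 CPM), and the lowest striatal library is WT replicate 3.

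Together the 10 genes took between 0.0269% and 1.67% of all counts of a library. In the 5 other cerebellum libraries the summed level of the 9 genes without *Enpp2* was 22.2 to 47.8 CPM, within reach of the 18.5 to 57.4 CPM of the prefrontal cortex. KI replicate 3 had 5082 CPM and WT replicate 1 had 2043 CPM, both inside the striatal range of 1592 to 9197 CPM. WT striatum replicate 3 formed the low end of that range.

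The other secreted products follow. *Enpp2* (chr15:54838901-54952892, minus strand) encodes autotaxin, the secreted enzyme that makes lysophosphatidic acid. Its level was 308, 230.0, 5911 and 322 CPM in the KI cerebellum and 2164, 235 and 230.4 CPM in the WT cerebellum. It was 6005, 3082 and 5444 CPM in the KI striatum, 6340, 8435 and 1521 CPM in the WT striatum, 287, 432 and 527 CPM in the KI prefrontal cortex and 394, 694 and 405 CPM in the WT prefrontal cortex. Unlike the others it never fell below 230.0 CPM, and in the prefrontal cortex its lowest and highest libraries were also those with the lowest (3567 CPM) and highest (12673 CPM) summed level of 12 myelin genes.

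*Sostdc1* (chr12:36314139-36318452, plus strand) encodes a secreted antagonist of BMP and Wnt signals. It was at 0.169, 0.610, 59.5 and 0.0605 CPM in the KI cerebellum and at 41.3, 0.197 and 0.0809 CPM in the WT cerebellum. In the KI striatum it reached 120, 93.0 and 148 CPM, and in the WT striatum 77.0, 103 and 16.8 CPM. In the prefrontal cortex it ranged from 0.871 to 3.51 CPM. The genotypes overlapped in each region. The 5 other cerebellum libraries held 19 *Sostdc1* reads in all, against 1062 in KI replicate 3 and 642 in WT replicate 1.

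*Kl* (chr5:150952607-150993817, plus strand) encodes klotho, which is shed into the fluid and acts as the co-receptor for FGF23. Its level was 1.07, 1.22, 170 and 1.09 CPM in the KI cerebellum and 62.0, 1.97 and 0.971 CPM in the WT cerebellum. The KI striatum had 198, 106 and 163 CPM and the WT striatum 228, 343 and 51.1 CPM, while the prefrontal cortex ranged from 1.06 to 4.61 CPM. *Kl* therefore stood high in the same 2 cerebellum libraries as *Ttr*, and its genotypes overlapped in all 3 regions.

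The genes for channels, carriers and receptors of the epithelial membrane shared the same high libraries. *Kcnj13* (chr1:87386363-87394729, minus strand), the inward rectifier potassium channel of the apical membrane, was at 64.4 CPM in KI replicate 3 and 22.1 CPM in WT replicate 1 of the cerebellum, against 1.99 to 6.08 CPM in the other 5, 15.8 to 102 CPM in the striatum and 0.674 to 4.35 CPM in the prefrontal cortex. Of its 1270 exonic bases, 623 (49.1%) are shared with *Gigyf2* on the opposite strand, and because the library kit does not mark strand, reads from the shared bases cannot be told apart. *Clic6* (chr16:92485736-92541243, plus strand), a chloride intracellular channel protein, was at 71.7 and 33.5 CPM in the same 2 libraries. In the other cerebellum libraries it was at 3.32, 6.10 and 2.42 CPM in KI and at 16.6 and 12.7 CPM in WT. It ranged from 30.3 to 120.0 CPM in the striatum and from 1.63 to 5.39 CPM in the prefrontal cortex.

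*Slc4a5* (chr6:83219828-83304945, plus strand), a sodium bicarbonate cotransporter of the fluid-facing membrane, was at 31.7 and 11.1 CPM in the 2 libraries and at 0.907 to 2.56 CPM in the other 5. It was at 4.17 to 42.9 CPM in the striatum and at most 0.182 CPM in the prefrontal cortex, where 6 libraries held between 0 and 3 reads each; 0 reads in WT replicate 3 allow a level of up to 0.202 CPM. *Aqp1* (chr6:55336432-55348555, plus strand), the water channel of the epithelium, was at 23.1 and 11.0 CPM in the 2 libraries. The other 5 held 9 *Aqp1* reads in all, with 0 reads in WT replicates 2 and 3, which allow up to 0.197 and 0.243 CPM. The striatum had 8.19 to 41.2 CPM of *Aqp1*. In the prefrontal cortex *Aqp1* was at 0.606, 0.150 and 0.387 CPM in KI and at 0.616, 1.56 and 7.62 CPM in WT. WT replicate 3 of the prefrontal cortex, with 113 *Aqp1* reads, stood above the others for this gene without being the highest of its region for *Ttr*. *Folr1* (chr7:101858331-101870788, minus strand), the folate receptor that moves folate from blood to fluid, was at 79.2 and 24.2 CPM in the 2 libraries and at 0 to 0.328 CPM in the other 5, which held 17 reads in all. It was at 24.3 to 140 CPM in the striatum and at 0.225 to 0.543 CPM in the prefrontal cortex.

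*Otx2* (chr14:48657677-48673819, minus strand), the homeodomain transcription factor of the group, behaved differently in the cerebellum. Its level there was 7.49, 10.6, 35.0 and 9.19 CPM in KI and 20.8, 10.0 and 7.36 CPM in WT. It was at 17.2, 16.0 and 25.4 CPM in the KI striatum, at 24.2, 31.1 and 7.65 CPM in the WT striatum and at 0.137 to 1.15 CPM in the prefrontal cortex. The 5 cerebellum libraries with little *Ttr* thus held 7.36 to 10.6 CPM, around the level of the lowest striatal library and above every prefrontal library. *Otx2* exons share 3.98% of their bases with *Gm49154* and 3.65% with *Otx2os1*.

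Steps between the cerebellum libraries were accordingly unequal among the genes. Over the median of the 5 other cerebellum libraries, KI replicate 3 was 767 times higher for *Ttr*, 156 times for *Kl*, 25.2 times for *Enpp2*, 17.6 times for *Kcnj13*, 17.3 times for *Slc4a5*, 11.8 times for *Clic6* and 3.80 times for *Otx2*. WT replicate 1 was higher by 307, 56.9, 9.21, 6.04, 6.04, 5.49 and 2.26 times, in the same order of genes. KI replicate 3 exceeded WT replicate 1 by between 1.44 times (*Sostdc1*) and 3.28 times (*Folr1*). In the striatum, WT replicate 3 stood at between 16.4% (*Sostdc1*) and 35.5% (*Clic6*) of the median of the other 5 libraries.

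Levels per kilobase of exon put the genes in an order. In the WT striatum the median was 5319 CPM per kb for *Ttr*, 1097 for *Enpp2*, 55.5 for *Kcnj13*, 46.4 for *Folr1*, 43.2 for *Sostdc1*, 27.6 for *Clic6*, 24.5 for *Kl*, 12.1 for *Aqp1*, 5.74 for *Otx2* and 4.49 for *Slc4a5*. The order was counted over the 6 striatal libraries and the 2 high cerebellum libraries. *Ttr*, *Enpp2*, *Kcnj13*, *Sostdc1* and *Kl* each exceeded the next gene in 8 of 8, and *Clic6*, *Aqp1* and *Otx2* exceeded theirs in 7 of 8. *Folr1* exceeded *Sostdc1* in only 4 of 8, so these neighbours were not separated. The WT order did not hold in the KI striatum, where *Sostdc1*, at 67.5, 52.2 and 83.1 CPM per kb, lay above *Kcnj13*, at 56.1, 34.6 and 68.0 CPM per kb. *Kcnj13* was divided by all its 1270 exonic bases, of which 49.1% are shared with *Gigyf2* on the opposite strand. Its level per kilobase, and so its place among its neighbours, is uncertain.

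Dividing each gene by *Ttr* in the same library removed most of the spread. Over the 6 striatal libraries, the highest level was 3.96 (*Clic6*) to 10.3 (*Slc4a5*) times the lowest, while the ratio to *Ttr* spanned 1.12 (*Folr1*) to 2.08 times (*Sostdc1* and *Aqp1*). The ratio is given below as reads per 1000 *Ttr* reads, in the 8 libraries with over 10000 *Ttr* reads. It does not depend on depth or scaling, but every ratio of a library shares its *Ttr* count.

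*Sostdc1* had the clearest split by genotype in these ratios. In the striatum it was at 24.4, 23.4 and 21.8 per 1000 *Ttr* reads in KI and at 12.2, 12.4 and 11.7 in WT, with means of 23.2 ± 1.33 and 12.1 ± 0.336 (SD, n = 3 each), a ratio of 1.92. The KI libraries all lay above the WT libraries. The 2 cerebellum libraries had the opposite order, with 13.1 in KI replicate 3 and 22.7 in WT replicate 1. Of all 16840 other tested genes, 1.15% had KI and WT striatal ratios to *Ttr* that did not overlap in either direction. *Ttr* itself ran from 1434 to 8275 CPM in WT and from 3974 to 6794 CPM in KI striatum. Ratios of genes that do not follow *Ttr* therefore tend to overlap, and 1.15% is not a rate for genes that follow it. No test is attached to the *Sostdc1* split.

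For *Folr1* the KI ratios of 16.7, 16.2 and 15.1 lay below the WT ratios of 16.9, 16.9 and 16.9, a mean of 16.0 ± 0.807 against 16.9 ± 0.0189 (SD, n = 3 each), a ratio of 0.948. The nearest *Folr1* ratios, 16.70 in KI replicate 1 and 16.89 in WT replicate 2, rest on 1215 and 1880 *Folr1* reads. WT replicate 3 held 314. Counting error was not set against this small gap, and nothing is read from the *Folr1* split. The other 7 genes overlapped. *Kl* was at 40.2, 26.6 and 23.9 in KI and at 36.2, 41.5 and 35.7 in WT. *Enpp2* was at 1221, 775 and 801 in KI and at 1005, 1019 and 1061 in WT. *Aqp1* had its lowest ratio, 2.74, in KI replicate 3, and was otherwise at 4.61 to 5.71. *Otx2* was at 3.50 to 5.34 in the striatum and at 7.69 and 11.4 in the 2 cerebellum libraries, which were the 2 highest of the 8.

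**Figure D2:**
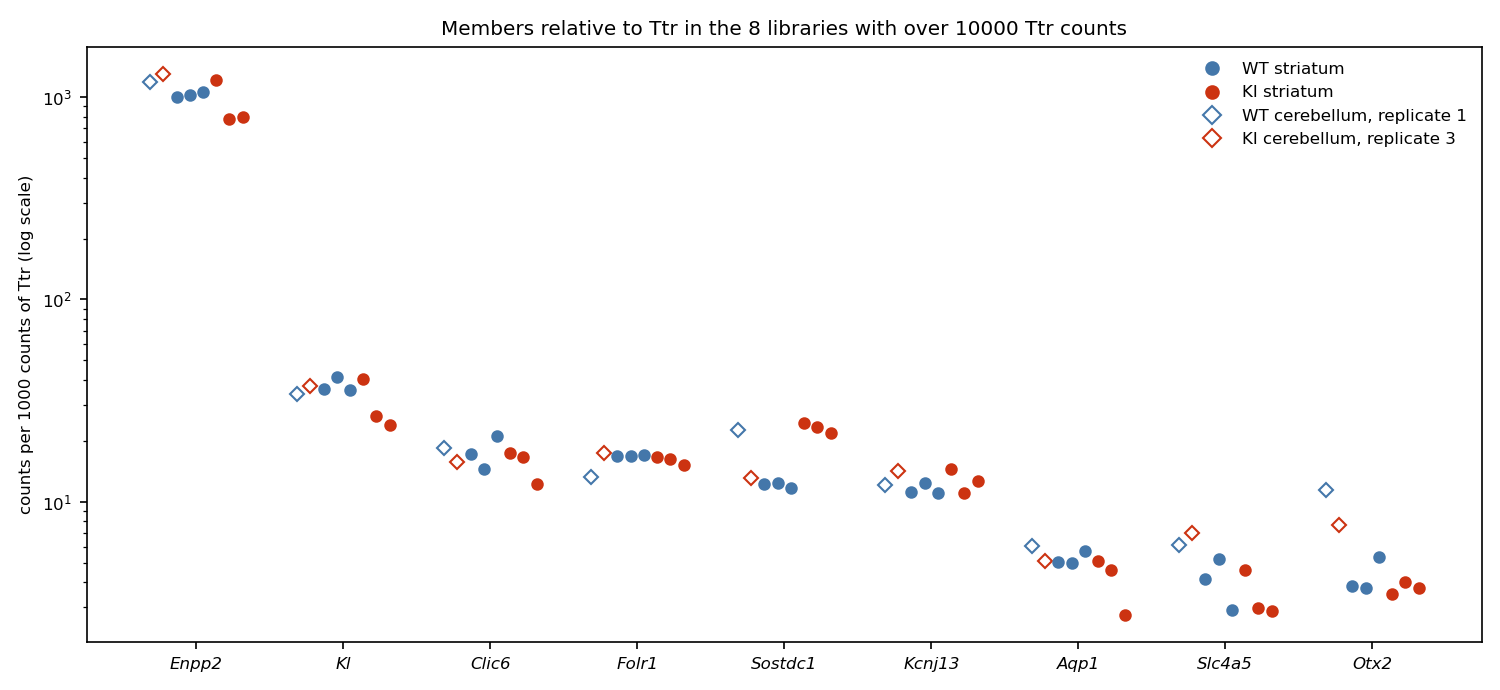
Reads of each of the 9 other genes per 1000 *Ttr* reads in the 6 striatal libraries and the 2 cerebellum libraries with over 10000 *Ttr* reads, on a log axis; each point is a library. *Sostdc1* is the gene whose KI striatal libraries (21.8 to 24.4) lie well above the WT ones (11.7 to 12.4), and *Otx2* is highest in the 2 cerebellum libraries.

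The first comparison of the design asks what the KI allele changed in each region. None of the 10 genes was called in any of the 3 regions by the quasi-likelihood test of edgeR, adjusted by Benjamini-Hochberg over all tested genes, none was at an unadjusted p under 0.05, and none was called by DESeq2. Among all tested genes the share called was 0.831% for cerebellum, 0.582% for striatum and 0.107% for prefrontal cortex, and the share at an unadjusted p under 0.05 was 10.1%, 8.12% and 5.93%. Since the genes were chosen for their spread among these libraries, nothing is read from the count.

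The fitted KI minus WT difference in the cerebellum was dominated by 1 library of each genotype. For *Ttr* it was 0.90 ± 1.83 (log2, SE), from group means of 1141 CPM in KI and 611 CPM in WT. With the summed level of the 9 genes as a covariate it was 0.07 ± 0.23, and with KI replicate 3 and WT replicate 1 left out, an alternative chosen after seeing the data, it was -0.44 ± 0.68. The biological coefficient of variation estimated for *Ttr* fell from 1.41 with all libraries to 0.438 without the 2 libraries and 0.194 with the covariate. The common values over all genes were 0.191, 0.182 and 0.178 in the same fits. The covariate holds *Ttr* itself, at 4547 of the 5082 CPM of the sum in KI replicate 3. A low spread of *Ttr* around the covariate is thus built in, and the covariate fit for the members is a description.

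*Clic6* was the gene for which the fits differed in another way. Its cerebellar difference was -0.01 ± 0.85 with all libraries, -1.01 ± 0.38 with the covariate and -1.88 ± 0.55 without the 2 libraries. In the 5 remaining libraries its KI values of 3.32, 6.10 and 2.42 CPM lay below its WT values of 16.6 and 12.7 CPM. Within the 2 high libraries the KI value of 71.7 CPM was above the WT value of 33.5 CPM. *Kl* moved from 0.99 ± 1.37 to 0.19 ± 0.25 and -0.42 ± 1.00, *Enpp2* from 0.95 ± 1.02 to 0.65 ± 0.34 and 0.30 ± 0.50, and *Otx2* from 0.29 ± 0.55 to 0.30 ± 0.31 and 0.06 ± 0.49, over the same 3 fits.

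**Figure D3:**
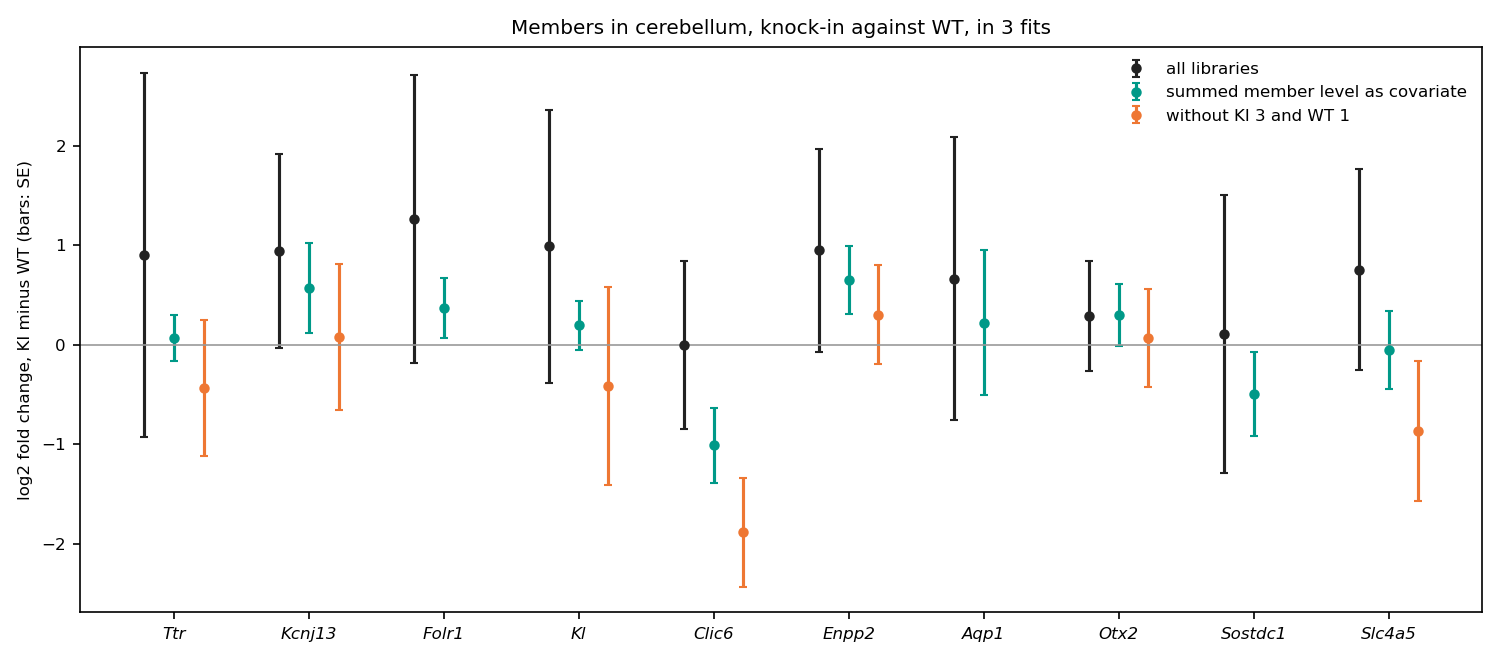
KI minus WT log2 difference in the cerebellum with its standard error for each of the 10 genes, from the fit of all 19 libraries, the fit with the summed level of 9 of the genes as covariate, and the fit without 2 cerebellum libraries (not drawn for *Folr1*, *Aqp1* and *Sostdc1*, which had under 20 reads in the remaining 5). Error bars are widest in the first fit, and *Clic6* moves from -0.01 to -1.01 and -1.88.

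In the striatum the fitted differences of the other genes were small beside their errors. *Ttr* was at -0.03 ± 1.91, *Folr1* at -0.12 ± 1.40, *Kl* at -0.42 ± 1.37 and *Slc4a5* at -0.43 ± 1.01 (log2, SE). *Sostdc1* was at 0.88 ± 1.42 with all libraries and at 0.92 ± 0.29 with the covariate. The errors of the first fit carry the spread of the cerebellum, since all libraries share 1 dispersion per gene. Without the 2 cerebellum libraries the *Sostdc1* difference was 0.88 ± 0.46.

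In the prefrontal cortex *Aqp1* had the difference farthest from 0, -3.03 ± 2.08, where WT replicate 3 held 113 reads and the other 5 libraries 2 to 23. The highest KI value of 0.606 CPM and the lowest WT value of 0.616 CPM came from 10 and 9 reads. *Ttr* was at 0.97 ± 2.11, with KI replicate 1 the highest library at 37.8 CPM and WT replicate 1 the lowest at 7.33 CPM. *Otx2* was at 0.26 ± 1.02 from mean levels of 0.658 CPM in KI and 0.541 CPM in WT. The genotypes overlapped for both *Ttr* and *Otx2*.

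The comparison of regions in WT mice asks where the genes are most abundant, and since the genes were chosen on levels in these same libraries their fitted differences are given with no call. Striatum minus prefrontal cortex, the log2 difference ran from 3.05 ± 1.55 (SE) for *Aqp1* to 8.83 ± 1.88 for *Slc4a5*, with *Ttr* at 8.69 ± 2.71 and *Otx2* at 5.25 ± 0.79. Cerebellum minus prefrontal cortex, it ran from 0.19 ± 1.56 for *Aqp1* to 6.62 ± 2.02 for *Slc4a5*, with *Ttr* at 5.57 ± 2.38. Cerebellum minus striatum, it was below 0 for all 10 genes, from -3.44 ± 1.58 for *Folr1* to -0.72 ± 0.58 for *Otx2*.

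The means of the WT cerebellum behind these differences rest largely on replicate 1. For *Ttr* that library had 1818 CPM and the other WT cerebellum libraries 12.3 and 4.12 CPM, near the 7.33 to 17.3 CPM of the WT prefrontal cortex. For *Otx2* it had 20.8 CPM and the others 10.0 and 7.36 CPM, both above every prefrontal library.

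A longer list of 40 other genes of the choroid plexus epithelium was set beside the 10. All 40 passed the filter. Their summed level was 2330 CPM in KI replicate 3 and 1287 CPM in WT replicate 1 of the cerebellum, against 732 to 823 CPM in the other 5. It was 1043 CPM in WT striatum replicate 3, 1633 to 3413 CPM in the other striatal libraries and 521 to 709 CPM in the prefrontal cortex. The longer list thus repeated the order of the libraries, from a higher floor.

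Its 5 members with the highest mean level differed in how far they followed that order. *Slc4a10*, a sodium bicarbonate transporter also made by neurons, was at 143 to 174 CPM in the 7 cerebellum libraries, with KI replicate 3 at 163 CPM inside that range. *Vat1l* was at 184 and 124 CPM in KI replicate 3 and WT replicate 1 of the cerebellum and at 82.2 to 111 CPM in the other 5, and in the striatum WT replicate 3, at 169 CPM, was above KI replicates 2 and 3, at 142 and 127 CPM. *Igfbp2*, which binds insulin-like growth factors in the fluid, was at 278 CPM in KI replicate 3 and 73.2 CPM in WT replicate 1 of the cerebellum, and at 28.9 to 53.1 CPM in the other 5. *Slc31a1*, the copper importer, was at 143 and 83.3 CPM against 55.4 to 66.3 CPM, and *Cab39l*, a partner of the kinase that activates ion cotransport, was at 151 and 94.0 CPM against 48.9 to 63.2 CPM. *Kcne2*, a potassium channel subunit of the apical membrane and a less abundant member, was at 48.1 and 19.2 CPM against 0 to 0.423 CPM, in a group of 5 libraries that held 12 of its reads.

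No gene of the 40 was called between KI and WT in any region by edgeR, with 1, 0 and 0 at an unadjusted p under 0.05 in cerebellum, striatum and prefrontal cortex. Of all tested genes 0.831%, 0.582% and 0.107% were called and 10.1%, 8.12% and 5.93% had such a p, the shares against which the counts of this and the following lists stand. The 1 gene of the 40 was *Cgnl1*, a junction protein, which DESeq2 called lower in the cerebellum (adjusted p = 0.00636). Its level was 26.3, 29.1, 41.5 and 34.3 CPM in KI and 83.7, 74.2 and 58.2 CPM in WT cerebellum, with no overlap, and edgeR's difference was -1.14 ± 0.28 (adjusted p = 0.0706). KI replicate 3 and WT replicate 1 were the highest of their genotype, and in the 5 libraries with little *Ttr* the gene was still at 26.3 to 34.3 CPM in KI and at 58.2 and 74.2 CPM in WT. *Cgnl1* was chosen after its values were seen, as were *Cox8b*, *Rbp4* and *Plvap* below.

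In WT mice 35 of the 40 were called higher in striatum than in prefrontal cortex and 1 was called lower, *Slc4a10*, where 30.5% of all tested genes were called and 14.0% were called higher in striatum. In cerebellum against striatum 22 were lower and 2 higher, where 56.5% of all genes were called and 27.8% were higher in cerebellum. In cerebellum against prefrontal cortex 7 were higher and 1 lower, where 52.0% of all genes were called and 25.1% were higher in cerebellum. The list was chosen with earlier results of these data known. Some of its genes could pass the filter mainly through the libraries where they are high. *Kcne2*, for example, was at 9.27 to 71.3 CPM in striatum and at 0.137 to 0.450 CPM in prefrontal cortex. The counts for the list in these 3 comparisons are therefore a description. Of the 40, only *Cox8b*, a cytochrome oxidase subunit, had striatal ratios to *Ttr* that did not overlap between genotypes. It was at 0.443 to 0.742 per 1000 *Ttr* reads in KI and at 0.216 to 0.341 in WT, where the lowest value rests on 4 reads. Over all tested genes the share without overlap was 1.15%, which is not a rate for genes that follow *Ttr*. Nothing is read from 1 of 40.

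The transporters that work with these genes in fluid secretion form a list of 17, all tested. None was called between KI and WT in any region, with 1 in cerebellum, 0 in striatum and 1 in prefrontal cortex at an unadjusted p under 0.05, and DESeq2 also called none. Among the most abundant, the sodium pump subunit *Atp1b1* (1508 to 1778 CPM in cerebellum), the basigin gene *Bsg*, the carbonic anhydrase *Car2* and the water channel *Aqp4* are made widely in brain. *Bsg* was highest of the cerebellum libraries in KI replicate 3, at 825 CPM against 580 to 700.0 CPM in the other 6. In WT mice 8 of the 17 were called higher and 3 lower in striatum than in prefrontal cortex, against 30.5% of all tested genes called and 14.0% called higher.

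Partners of the secreted products and receptors form a list of 31, of which 28 were tested. They include the thyroid hormone receptor *Thra* (201 to 286 CPM in cerebellum), the thyroxine carrier *Slco1c1*, the lipid phosphatase *Plpp3* that degrades the product of autotaxin, and the FGF receptors *Fgfr1* and *Fgfr3*. None was called between KI and WT, with 0, 2 and 1 at an unadjusted p under 0.05 in cerebellum, striatum and prefrontal cortex, against 10.1%, 8.12% and 5.93% of all tested genes. DESeq2 called 1, *Rbp4*, which encodes the retinol-binding protein that transthyretin carries, lower in the striatum. Its level was 17.0, 32.3 and 17.6 CPM in KI and 61.8, 45.1 and 34.1 CPM in WT striatum, and edgeR's difference was -1.08 ± 0.30 (adjusted p = 0.182). The WT replicate with the least *Ttr* also had the least *Rbp4* of its genotype. Other striatal libraries went the other way. KI replicate 2 had the least *Ttr* of its genotype (3974 CPM) and the most *Rbp4* (32.3 CPM). WT replicate 2 had more *Ttr* than WT replicate 1 (8275 against 6309 CPM) and less *Rbp4* (45.1 against 61.8 CPM).

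Markers of neighbouring cell types were read for the same libraries, as shown in the plot of summed levels. Of 20 ependymal genes, which mark the ciliated lining of the ventricles, 19 were tested and none was called between KI and WT by either tool or at an unadjusted p under 0.05. Their summed level was 75.8 CPM in KI replicate 3 and 60.0 CPM in WT replicate 1 of the cerebellum, 30.7 to 37.7 CPM in the other 5, 82.6 to 178 CPM in the striatum and 29.3 to 71.4 CPM in the prefrontal cortex. The ciliary transcription factor *Foxj1* was at 7.90 and 5.53 CPM in the 2 libraries and at 1.97 to 3.63 CPM in the other 5. The summed ependymal level thus stood higher in the same 2 libraries, but not every gene of the list did. *Hydin* was at 7.00 and 4.05 CPM there, against 5.57 to 9.04 CPM in the other 5. *Tmem212* was at 0.560 CPM in KI replicate 3, inside the 0.0809 to 1.69 CPM of the other 5. The part of ependymal cells in the levels of the 10 genes was not tested.

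Fibroblast genes of the meninges and vessels, a list of 20 with all tested, did not share the order. Their summed level was 1711 to 2859 CPM in KI cerebellum and 1303 to 2652 CPM in WT cerebellum, with WT replicate 1 the lowest of the 7 libraries. It was 356 to 834 CPM in the striatum and 391 to 2236 CPM in the prefrontal cortex. *Ptgds*, prostaglandin D synthase, took most of this sum, at 1029 to 2292 CPM in the cerebellum. *Igf2*, an insulin-like growth factor that is also made in the choroid plexus, was at 115 CPM in KI replicate 3 and 42.4 CPM in WT replicate 1, against 26.6 to 47.8 CPM in the other 5. None of the 20 was called between KI and WT by either tool, with 0, 0 and 1 at an unadjusted p under 0.05.

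The 11 endothelial genes were summed at 333 to 370 CPM in the cerebellum and at 389 to 496 CPM in the striatum. None was called by edgeR between KI and WT, with 1, 2 and 0 at an unadjusted p under 0.05, while DESeq2 called *Plvap* lower in the KI cerebellum. *Plvap* encodes the diaphragm protein of fenestrated vessels, such as those in the stroma of the plexus. It was at 12.7 to 16.9 CPM in KI and 23.6 to 28.0 CPM in WT (edgeR -0.86 ± 0.23, adjusted p = 0.110), and KI replicate 3, at 13.1 CPM, did not stand apart. The 5 red blood cell genes ranged from 117 CPM, in WT replicate 1, to 451 CPM in the cerebellum.

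The 12 myelin genes were at 5740 to 8509 CPM in the cerebellum, 9741 to 22089 CPM in the striatum and 3567 to 12673 CPM in the prefrontal cortex. The 12 genes of thalamus and habenula, 11 of them tested, were at 274 to 350 CPM in the cerebellum and 93.7 to 119 CPM in the striatum. In the cerebellum much of that sum came from *Prkcd*, at 114 to 183 CPM, and *Zic4*, at 57.1 to 72.7 CPM. *Pou4f1* and *Gbx2* were there at no more than 0.168 and 0.162 CPM. The sum is therefore not read as an amount of thalamic tissue. Of 15 genes of the hindbrain below the cerebellum 4 were tested, and the list was at 7.26 to 11.6 CPM in the cerebellum, with the glycine transporter *Slc6a5* at 5.88 to 10.4 CPM. None of these red blood cell, myelin, thalamus or hindbrain genes was called between KI and WT by either tool. At an unadjusted p under 0.05 there were 0, 1 and 0 red blood cell genes, 0, 0 and 0 myelin genes, 1, 2 and 0 thalamus genes and 0, 0 and 0 hindbrain genes in cerebellum, striatum and prefrontal cortex.

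**Figure D4:**
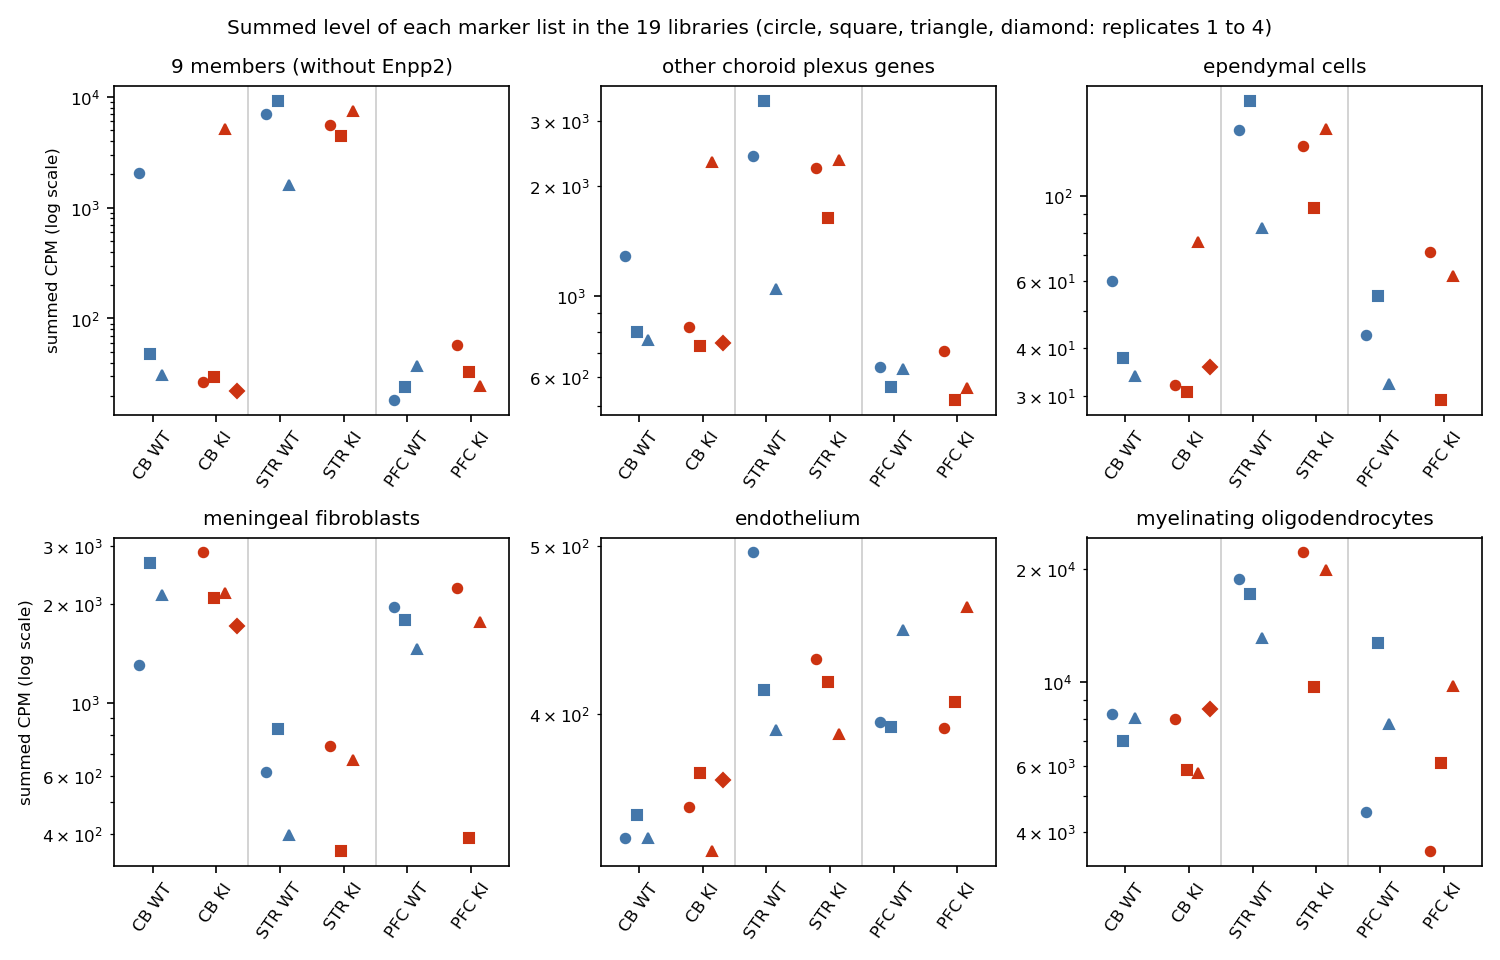
Summed CPM of 6 gene lists in each of the 19 libraries on log axes, with KI and WT libraries of each region in separate columns; each point is a library. The choroid plexus and ependymal lists are raised in 1 KI and 1 WT cerebellum library, whereas the fibroblast list has its lowest cerebellum value, 1303 CPM, in that WT library.

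Likeness to the choroid plexus genes was measured over all 19 libraries as Pearson's r between each gene's deviations from its group means of log2 CPM and those of the summed 9 genes. It is given as a description with no p, since all points share the libraries, their depth and their scaling. The sum lies farthest from its group means in KI replicate 3 and WT replicate 1 of the cerebellum, so these 2 libraries weigh most in r. Of the 10 genes, which with the exception of *Enpp2* are part of the sum, 9 had r above 0.8 and *Otx2* was lowest at 0.77. The 40 other choroid plexus genes had a median r of 0.86, with 27 above 0.8, and 158 of all 16841 tested genes were above 0.8.

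The 20 genes most alike outside the group ran from *Mlf1* (r = 0.97) to *Lmx1a* (r = 0.94). They differed in how far they followed the group outside the cerebellum. In WT striatum replicate 3 they stood at between 16.3% (*Calml4*) and 94.6% (*Spag6l*) of the median of the other striatal libraries. *Igfn1* was at 1.00 to 3.24 CPM in striatum and at 5.81 to 12.4 CPM in prefrontal cortex. Of these, 8 were on the longer list: *Car12*, *Steap1*, *Tmem72*, *F5*, *Kcne2*, *1500015O10Rik*, *Calml4* and *Lmx1a*, the last a transcription factor of the roof plate from which the plexus grows. *Ccdc113*, *Spag6l* and *Rsph1* encode proteins of motile cilia. *Rsph1*, a radial spoke protein, was at 16.4 and 8.10 CPM in the 2 cerebellum libraries, at 0.647 to 3.08 CPM in the other 5 and at 13.9 to 28.5 CPM in the striatum. The others were *Mlf1*, *Defb11*, *Tmprss11a*, *Igfn1*, *Frmpd1os*, *Efcab10*, *Spaca9*, *Dpep1* and *Gm29538*. *Defb11*, a beta-defensin, and *Dpep1*, a membrane dipeptidase, had 0 reads in the other 5 cerebellum libraries, against 5.99 and 1.68 CPM in KI replicate 3 and 1.03 and 0.900 CPM in WT replicate 1.

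Among the other lists, r above 0.8 was seen for 3 of 17 fluid secretion genes (*Car12*, *Kcne2* and *Trpv4*, which are also on the longer choroid plexus list) and for 3 of 28 partners. The partners included *Stra6*, the receptor for retinol-binding protein (r = 0.82). Of the 19 ependymal genes 4 were above 0.8, *Foxj1*, *Dynlrb2*, *Cfap44* and *Pifo*, with a list median of 0.57. These genes above 0.8 are named after their values were seen. No fibroblast, endothelial, red blood cell, myelin, thalamus or hindbrain gene was above 0.8, and their list medians lay between -0.13 and 0.16. All tested genes had a median of -0.03.

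**Figure D5:**
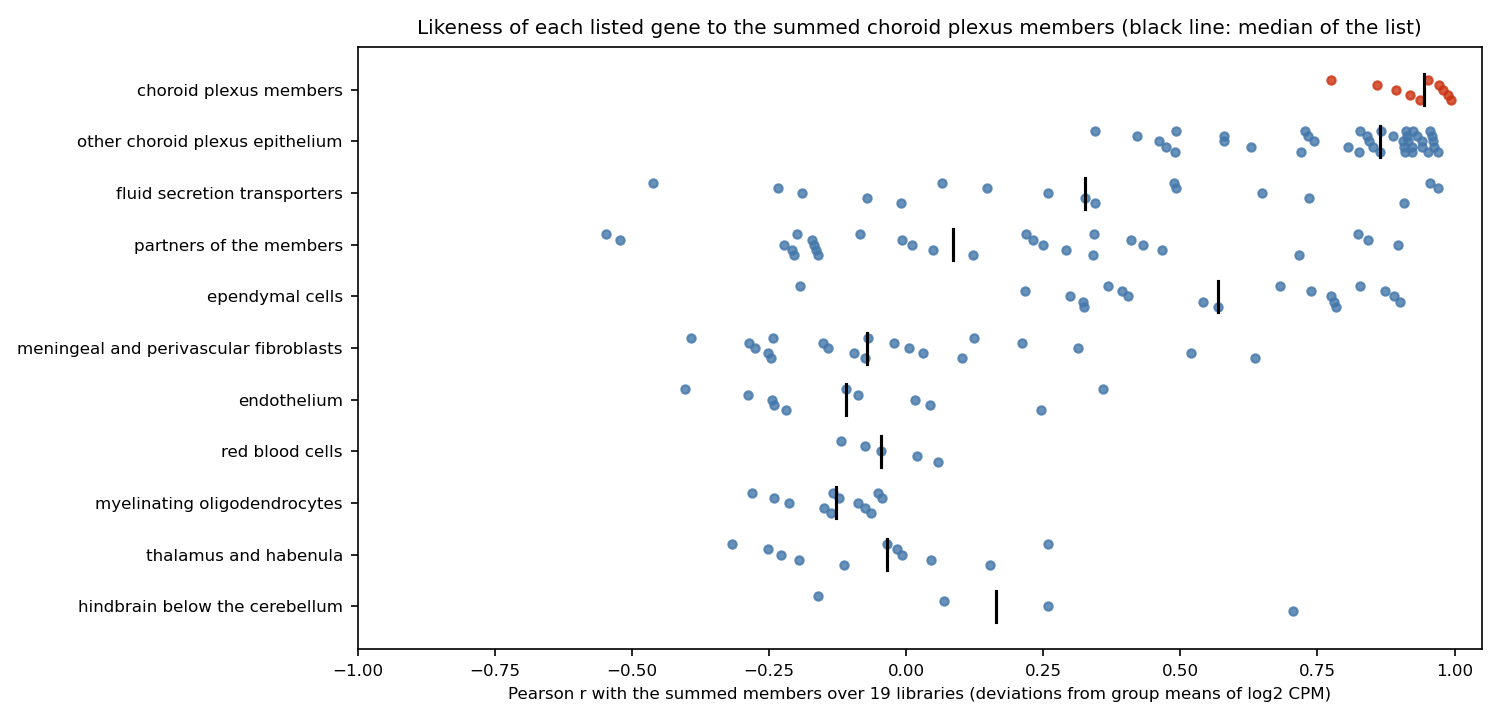
Pearson's r between each tested gene's deviations from its group means and those of the summed choroid plexus genes without *Enpp2*, over 19 libraries, by gene list; each point is a gene and lines mark list medians. The choroid plexus lists sit near the top (medians 0.94 and 0.86), ependymal genes spread around 0.57, fibroblast, endothelial, blood and thalamus genes spread around 0, and the 12 myelin genes lie between -0.28 and -0.04.

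The same 2 cerebellum libraries marked out a wider set of genes. There were 138 tested genes (0.819%) whose level in both KI replicate 3 and WT replicate 1 was over 2 times the highest of the other 5 cerebellum libraries. They included 9 of the 10 genes, all but *Otx2*, 21 of the 40 other choroid plexus genes and 5 ependymal genes. In the striatum, WT replicate 3 was the lowest of 6 libraries for 103 of the 138 (74.6%), against 2972 (17.6%) of all tested genes. The striatal libraries were not used for the cutoff, but the 9 genes were chosen with their striatal levels known. The 21 and 5 come from lists chosen with earlier results known. Genes with few reads in the other 5 cerebellum libraries could also pass the filter mainly through the striatum. The share is therefore a description and not independent of the selection.

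How far the KI calls depended on the choroid plexus level was then measured by adding that level to the fit. The covariate was the log2 summed level of the 9 genes without *Enpp2*, centred within each region, and by its own term 213 genes rose and 6 fell with it. In the cerebellum 140 genes were called without it and 153 with it, 131 of them shared, so that 9 calls were lost and 22 gained. In the striatum 98 were called in both fits with 93 shared, and in the prefrontal cortex 18 and 21 with 18 shared.

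Leaving out the 2 libraries instead moved the cerebellar calls more than the covariate did. It gave 106 calls, of which 79 were shared with the 140, so 61 were lost and 27 gained in a fit with 2 fewer libraries. The striatum kept 84 of its 98 calls and the prefrontal cortex 17 of its 18. For the cerebellum, leaving out only WT replicate 2 gave 73 calls with 71 shared, and only WT replicate 3 gave 78 with 75 shared. A loss of this size was thus not particular to the 2 libraries high in *Ttr*. With *Ttr* alone as the covariate the counts were 147, 96 and 22 in cerebellum, striatum and prefrontal cortex.

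Within a region, r was taken between log2 CPM values over its KI and WT libraries together, not between deviations from group means. A difference between genotypes therefore enters this r, and a called gene can follow the choroid plexus level within each genotype more closely than r shows. The same holds for the striatum and prefrontal cortex below. By the size of this r over the 7 cerebellum libraries, the first called genes were *Hsd3b7* (r = 0.38), *Hmcn1* (0.38), *Lrmp* (-0.35), *Tyrobp* (-0.35) and *Itgam* (-0.35). *Tyrobp*, the adaptor of microglial receptors, was at 10.1 to 13.5 CPM in KI and 3.73 to 6.09 CPM in WT. Its difference in edgeR was 1.18 ± 0.19 without the covariate (adjusted p = 0.00336) and 1.17 ± 0.18 with it (adjusted p = 0.00261). *Itgam*, which encodes CD11b of microglia, was at 4.76 to 7.86 CPM in KI and 2.99 to 3.21 CPM in WT and stayed called, with a difference of 1.04 ± 0.17 in the fit with the covariate. *Hmcn1*, an extracellular matrix protein, was lower in KI, at -1.47 ± 0.27 and -1.38 ± 0.26.

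Among the cerebellar calls lost or gained with the covariate, those with the smallest adjusted p were all gained: *Arhgap20*, *Rasal1*, *Utrn*, *Prmt8* and *Acaa2*. *Acaa2*, a thiolase of mitochondrial fatty acid oxidation, varied most with the choroid plexus genes (r = 0.69 over 7 libraries). It was at 37.2, 41.9, 63.8 and 32.9 CPM in KI and 37.6, 30.2 and 24.2 CPM in WT, so the genotypes overlapped through WT replicate 1. Its adjusted p in edgeR was 0.401 without the covariate and 0.0341 with it, at differences of 0.52 ± 0.21 and 0.56 ± 0.12. For the other 4, r lay between -0.57 and 0.29.

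In the striatum the called genes most like the choroid plexus genes were *Bst2* (r = 0.58 over 6 libraries), *Ifi27* (0.51), *Trim21* (0.49), *Cacnb3* (-0.47) and *Lgals3bp* (0.46). All but *Cacnb3*, a calcium channel subunit, are known as genes that interferon induces. *Lgals3bp*, a secreted galectin ligand, was at 167, 131 and 235 CPM in KI and 46.1, 47.1 and 24.6 CPM in WT. Its difference in edgeR was 2.18 ± 0.33 (adjusted p = 0.0035) without and 2.16 ± 0.26 (adjusted p = 0.000507) with the covariate. *Bst2*, the antiviral tetherin, was at 27.0, 23.2 and 57.2 CPM in KI and 10.2, 9.44 and 3.40 CPM in WT, and its difference stayed at 2.22 ± 0.46 and 2.21 ± 0.34. For all 5 of these genes the fold change moved by less than its error. *Gsk3b*, *Myo7b* and *Rsad2* lost their call with the covariate, with adjusted p values of 0.0416, 0.0416 and 0.042 before and 0.0539, 0.055 and 0.0562 after, and *Il17rc* and *Arel1* gained one.

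In the prefrontal cortex the called genes most like them included *Ifi44* (r = 0.59 over 6 libraries), *Rflnb* (-0.53), *Irf9* (0.53) and *Oas1g* (0.52), and of these 4 all but *Rflnb* belong to the interferon response. *Irf9*, a subunit of the factor that interferon receptors activate, was at 36.5, 26.1 and 37.5 CPM in KI and 11.2, 11.1 and 13.8 CPM in WT, with differences of 1.47 ± 0.18 and 1.45 ± 0.17. The 3 calls gained in edgeR were *Lgals3bp* (adjusted p 0.0652 to 0.0138), *Ifi27* (0.118 to 0.0292) and *Myh7* (0.622 to 0.0445). *Lgals3bp* and *Ifi27* kept their direction and size, at 1.73 ± 0.34 and 1.69 ± 0.26 and at 1.29 ± 0.27 and 1.24 ± 0.21. No call was lost in this region.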

How the data were processed

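RNA was sequenced from 3 brain regions of 3 month old mice in 19 libraries, prepared with the SMART-Seq v4 and Nextera XT kits, which do not mark strand; the labels name more than 1 amount of input RNA. The authors deposited the count of reads per Ensembl gene, not normalized, and the same counts divided by a DESeq2 size factor per library, a signal table deposited alongside and used here only as an alternative scaling. The submitters' processing notes name bcl2fastq 2.17.1.14, STAR 2.5.2b, HTSeq, DESeq2 1.10.1 and the build GRCm38.p3, and the use of strand in counting is not given in the sources used here. Groups, replicate numbers and columns were taken from the sample labels.

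Gene names, positions and exon lengths came from GENCODE M21, where 40254 of the 41128 identifiers were found. The counts were fitted with edgeR 4.0.16 and limma 3.58.1 under R 4.3.3: filterByExpr by the 6 groups left 16841 genes, libraries were TMM scaled, and a quasi-likelihood fit of all 19 libraries (13 residual degrees of freedom) gave each comparison, with Benjamini-Hochberg adjustment over all tested genes and a threshold of 0.05. Log2 CPM used a prior count of 2. Alternatives were DESeq2 1.42.0, other filters and scalings, a block for replicate number, regions fitted alone, each library left out, and covariates for the choroid plexus level. The 10 genes and all lists were chosen with earlier results of these data known. Named were the 10 genes, at most 5 of each list by mean CPM or call, the 20 genes with the highest r, and per region the 5 called genes with the largest absolute r and the 5 changed calls with the smallest adjusted p; a few chosen after seeing values are marked, and some genes that these rules cover are not reported here.

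Replicate libraries are from mice that the labels do not tie to litters or batches, so p values measure the spread between these libraries. No libraries of a group agreed within counting noise: chi-square per degree of freedom was 5.16 to 31.4 over 21 pairs. Where a library had 0 reads, 3 counts were taken as the upper limit; PCR copies were not marked by molecular identifiers and reads are not independent molecules, so such limits cover counting error alone. Counts were simulated for the cerebellum comparison over 16665 genes. Recovery by edgeR was 65% of 100 genes changed by 1 log2 unit and 100% of 100 changed by 2. For the covariate fit it was 74% and 100%, and for DESeq2 86% and 100%. False calls are not given here, so these rates do not rank the tools. They are also not read as power for the choroid plexus genes. With all libraries, the biological coefficient of variation of those genes ran from 0.531 (*Otx2*) to 1.41 (*Ttr*), against a common value of 0.191.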

Additional observations from a re-analysis of the deposited data

Results flagged for a closer look

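In the KI cerebellum, the only group of 4 libraries, the summed levels of the 10 other gene lists were each tested with Dixon's ratio, the gap from the farthest library to its nearest neighbour divided by the whole range. The 10 genes themselves were not tested, since they were chosen on these levels. The sum of the 40 other choroid plexus genes gave 0.943 and that of the 20 ependymal genes 0.888, both past the 95% limit with replicate 3 as the highest library. The sums of fluid secretion, partner, fibroblast, endothelial, red blood cell, myelin, thalamus and hindbrain genes stayed under the limit. Chance passes about 5 percent of groups, the 10 sums share the same 4 libraries and are not independent, and the lists were chosen with earlier results of these data known. The WT cerebellum is a group of 3, to which Dixon's ratio was not applied.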

How the results depend on the processing

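Of 94 counts of calls recomputed under other settings with no library left out, 84 stayed within 1.5 times and 10 moved. DESeq2 called 336, 214 and 52 genes between KI and WT in cerebellum, striatum and prefrontal cortex, against 140, 98 and 18, and 1 of the 40 other choroid plexus genes in the cerebellum; the latter count was also 1 with no filter and with the region alone. With edgeR on each region alone 46 genes were called for striatum and 0 for prefrontal cortex, where 571 genes had an unadjusted p under 0.05. With at least 10 counts in every library 23 of the other choroid plexus genes were called in WT striatum against prefrontal cortex, against 36, because fewer were tested. With the replicate block 142, 72 and 9 genes were called. Within a region, deviations of KI and WT libraries of the same number correlated at only -0.245 to 0.172, so these were not read as pairs. Whether the same number and genotype in different regions is the same mouse was not examined. The comparisons of regions treat their libraries as independent.

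With 1 library left out, KI calls ranged from 73 to 151 in the cerebellum (73 without WT replicate 2, 78 without WT replicate 3). In the striatum they ranged from 36 to 121 (36 without KI replicate 3 or WT replicate 2, 59 without KI replicate 1, 56 without WT replicate 1 or 3). In the prefrontal cortex they ranged from 5 to 16 (5 without WT replicate 2, 6 without WT replicate 1, 10 without KI replicate 3). In WT mice the calls ranged from 8470 to 8963 for cerebellum against striatum, 7804 to 8369 for cerebellum against prefrontal cortex and 3803 to 4886 for striatum against prefrontal cortex. Of the 40 other choroid plexus genes, 10 to 33, 6 to 8 and 23 to 34 were called in these 3 comparisons and 0 in each KI comparison; the 33 came without WT cerebellum replicate 1. The causes were not tested. Fold changes of the 10 genes stayed within 1 SD in 417 of 436 recomputations, and of the 19 others 18 left out KI replicate 3, WT replicate 1 or both from the cerebellum and 1 left out WT replicate 3 of the prefrontal cortex. That margin is wide and can hold a change of sign. The cerebellar *Ttr* difference of 0.90 became -1.11 with the replicate block and counted as within it. So did *Clic6*, from -0.01 to -1.01 with the covariate. Levels of the 10 genes under 1 CPM rest on few reads, which limits any comparison among the 5 other cerebellum libraries and in the prefrontal cortex.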
